A study of Homo sapiens with 2 samples.

Results

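The 10 globin genes of the human alpha and beta clusters were followed in the DNA methylomes of 2 acute myeloid leukemia (AML) cell lines. The beta-type genes HBE1, HBG2, HBG1, HBD and HBB lie on chromosome 11 between positions 5246694 and 5291175 of GRCh37 and are transcribed from the reverse strand. The alpha-type genes HBZ, HBM, HBA2, HBA1 and HBQ1 lie on chromosome 16 and are transcribed from the forward strand. The genes were chosen by name, and each was measured over the CpG dinucleotides within 2000 bp of its transcription start and in its gene body, with the sequence between the genes as context. In all 10 genes the body lies inside the window, so body and window values share sites. The choice was made with the methylation levels of these 2 libraries already known, so the levels are given as a description and carry no test of the gene set. The 10 genes were compared with 19620 protein-coding genes whose promoter was measured, and their windows and bodies held 1204 of the 28217448 CpG dinucleotides listed.

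Globin genes encode the protein chains of hemoglobin and are used one after another in development. In the beta cluster epsilon (HBE1) is the embryonic chain, the gamma genes (HBG1 and HBG2) are fetal, and delta (HBD) and beta (HBB) are adult, all under a distant enhancer array upstream of HBE1 called the locus control region. In the alpha cluster zeta (HBZ) is embryonic and HBA1 and HBA2 are the adult genes, and HBM and HBQ1 are less studied members, with the main enhancers lying inside the neighboring gene NPRL3. DNA methylation, the addition of a methyl group to cytosine mostly at CpG, is placed de novo by enzymes that include DNMT3A.

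The study compared the methylome of a DNMT3A mutant line, OCI-AML3 (heterozygous R882C), with that of a DNMT3A wild-type line, AML5, which the labels call OCI-AML5, by whole-genome bisulfite sequencing, in which unmethylated cytosine is read as thymine. Both lines were grown in DMEM with fetal bovine serum, and the labels name no treatment. There was 1 library per line and no replicate, so differences of patient origin, karyotype and culture cannot be told apart from DNMT3A status, and no difference between the lines has a replicate check. OCI-AML3 gave 902802339 calls and AML5 gave 894828667, with medians of 27 and 30 reads per nuclear CpG, and the mean level over the genome was 67.6% and 75.2%. Levels are methylated calls as a percentage of all calls at a CpG, where each line had more than 5 reads, and a mean ± SD is taken over CpG dinucleotides of 1 library. Differences are OCI-AML3 minus AML5 in percentage points. Intervals and single-CpG tests cover the sampling of reads only, and several calls can come from 1 read. With a median depth, 3 calls correspond to 11.1% methylation in OCI-AML3 and to 10.0% in AML5. The promoter of the myeloid gene SPI1 averaged 11.5% in both lines, that of CEBPA had 1.8% and 6.0%, and that of the lymphoid gene CD3E had 75.3% and 91.5%. Other markers went the other way, with myeloid MPO at 93.2% and 90.3%, LYZ at 75.5% and 71.2%, and B lymphoid PAX5 at 22.5% and 36.3%. Medians were 36.7% and 34.9% over 6 myeloid markers. They were 69.5% and 69.6% over 3 B lymphoid and 75.3% and 87.7% over 3 T lymphoid markers. These promoter levels therefore do not identify the cell type. Methylation does not measure expression.

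The sequences that the cluster measurements rest on are sparse in CpG on the beta side and dense on the alpha side. RefSeq promoter sequences (GRCh38.p14) were on hand for 2 of the 10 genes, HBD and HBM, and the 250 bases before each start are shown because they hold the contrast in CpG content. Capitals mark the CpG dinucleotides, and each sequence matched GRCh37 in full at a single place on its chromosome.
HBD: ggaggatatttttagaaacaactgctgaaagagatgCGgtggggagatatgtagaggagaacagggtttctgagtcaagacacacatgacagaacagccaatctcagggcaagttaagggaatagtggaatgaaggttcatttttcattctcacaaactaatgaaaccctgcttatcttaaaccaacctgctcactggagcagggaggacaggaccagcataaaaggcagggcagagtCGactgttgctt
HBM: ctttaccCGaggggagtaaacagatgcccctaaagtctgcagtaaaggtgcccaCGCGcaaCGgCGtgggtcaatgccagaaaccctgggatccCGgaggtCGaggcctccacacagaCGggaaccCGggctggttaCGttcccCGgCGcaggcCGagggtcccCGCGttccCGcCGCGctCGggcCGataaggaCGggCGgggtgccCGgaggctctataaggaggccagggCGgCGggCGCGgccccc
The HBD sequence held 2 CpG dinucleotides and the HBM sequence held 27, and 14.7% and 82.3% of all 35116 RefSeq promoters of this length held fewer. On either strand, CCAAT was found in HBD and not in HBM, and in 32.0% of all these promoters. CACCC was found in HBM and not in HBD, and in 54.7% of all. TATAA was found in HBM and not in HBD, and in 18.9% of all, and GATAA was found in both and in 20.4% of all. These letters are matches and not measured sites.

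All 5 beta-type genes were less methylated on average in OCI-AML3 than in AML5. Over the 109 covered CpG dinucleotides of their windows, of 142, OCI-AML3 averaged 34.2% ± 36.3 and AML5 averaged 83.5% ± 25.1, so that they differed by -49.3 points. The alpha-type windows were nearly level, at 37.5% ± 34.2 and 38.0% ± 34.9 over 730 of 1062, a difference of -0.50. By Fisher's exact test, adjusted over the genome after Benjamini-Hochberg at 0.05, 18.5% of all 24454751 CpG dinucleotides tested were called different, 14.7% lower in OCI-AML3 and 3.86% higher. Of the 839 tested in the globin windows and bodies, 311 were called, which is 37.1%. In the beta genes 65 of 109 were called lower (59.6%, beside 14.7% for the genome) and 0 higher. In the alpha genes 127 of 730 were called lower (17.4%, beside 14.7%) and 119 higher (16.3%, beside 3.86%). The plot of single CpG levels by gene shows this contrast.

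**Figure D1:**
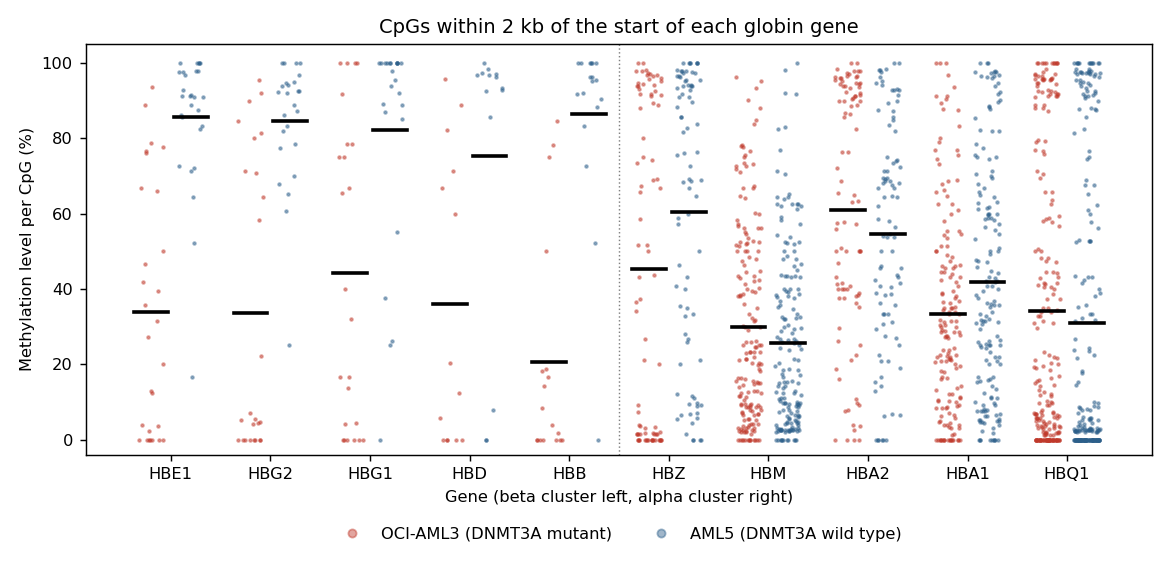
Methylation level in percent of each covered CpG within 2000 bp of the start of each globin gene, in OCI-AML3 (red) and AML5 (blue), with a black bar at the mean over CpG dinucleotides. The beta genes on the left have means of 20.6% to 44.1% in OCI-AML3 and 75.3% to 86.3% in AML5, and the alpha genes on the right have means in the 2 lines that lie closer together.

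HBE1, the embryonic epsilon gene, was covered at 28 of 30 window CpG dinucleotides. Their mean was 34% ± 32.6 in OCI-AML3 and 85.7% ± 18.1 in AML5, with 21 called lower and 0 called higher. As a share of all calls the level was 35.9% (Wilson 95% interval 32.9 to 39.1) and 85.6% (83.2 to 87.7). The 2 CpG dinucleotides in the 250 bp before the start averaged 1.9% in OCI-AML3 and 86.6% in AML5. Within the gene, exon 1 kept 66.5% ± 38.4 over 2 CpG dinucleotides in OCI-AML3 against 94.4% ± 4.3 in AML5. Exon 2 stood at 0.74% ± 1.28 and 57.6% ± 35.8 over 3, and exon 3 at 1.9% and 88.7% over 2. The low levels of HBE1 in OCI-AML3 thus lay both before the start and in the later exons, and the first exon lay between them.

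The fetal genes HBG2 and HBG1 are near-identical copies. The HBG2 window had 33.7% ± 38.6 in OCI-AML3 against 84.6% ± 16.9 in AML5 over 25 of 33 CpG dinucleotides, with 14 called lower. The HBG1 window had 44.1% ± 40.3 and 82.2% ± 29.6 over 24 of 36, with 10 called lower. In each gene 9 CpG dinucleotides lay in sequence found more than once in the cluster, of which 3 were covered, and exon 1 had no covered CpG in either gene. Assignment of reads between the copies is therefore uncertain there. Leaving those sites out, the difference was -46.4 points for HBG2 and -37.5 for HBG1. At position -161 from the start, within such repeated sequence, HBG2 had 1 methylated of 22 reads in OCI-AML3 and 24 of 26 in AML5. At the same place in HBG1 the reads were 1 of 6 in OCI-AML3 and 0 of 7 in AML5.

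Both gamma genes held a short run of CpG dinucleotides in intron 2 that was largely methylated in both lines. Between 1084 and 1128 bp after the start of HBG2, 5 CpG dinucleotides averaged 73.0% in OCI-AML3 and 81.8% in AML5, and 0 were called. Between 1078 and 1122 bp in HBG1 the mean was 78.6% and 88.8% over 7, again with 0 called, at depths down to 7 reads. A single HBG1 site of this run, at 1086 bp, was low in both lines, with 0 of 7 and 6 of 23 reads. The other covered window sites of HBG2 averaged 23.8% in OCI-AML3 and 85.3% in AML5, and those of HBG1 averaged 29.9% and 79.5%. The third exon of both genes was at 0.0% in OCI-AML3 at the 2 CpG dinucleotides covered in each, against 82.3% ± 20.4 for HBG2 and 71.9% ± 24 for HBG1 in AML5.

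HBD, the minor adult beta-like chain, had 36% ± 38.7 in OCI-AML3 against 75.3% ± 39.6 in AML5 over 14 of 19 CpG dinucleotides, with 6 called lower. Unlike the rest of its window, the sequence next to its start was low in both lines. The 2 CpG dinucleotides of the promoter sequence shown above, at -11 and -213, had 1 of 8 and 0 of 6 methylated reads in OCI-AML3 and 0 of 10 and 0 of 8 in AML5. In exon 1, the CpG at 110 bp had 0 of 29 in OCI-AML3 and 2 of 25 in AML5. In exon 2, the CpG at 472 bp had 0 of 46 against 37 of 40 (adjusted p = 8.9e-19, Fisher's exact test on reads). A cluster of 3 sites at -1931 to -1986 stayed high in both lines, and at -1931 the reads were 46 of 48 and 66 of 66.

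HBB, the major adult beta chain, had the largest mean difference of the 10 genes over the 2000 bp windows, while with 1000 bp on either side it had -56.5 points and HBG2 -68.0. Its window averaged 20.6% ± 29.8 in OCI-AML3 against 86.3% ± 24.7 in AML5 over 18 of 24 CpG dinucleotides, with 14 called lower and 17 lower in value. The share of calls was 20.4% (Wilson 95% interval 16.4 to 25.3) and 86.3% (82.9 to 89.1), a difference of -65.9 points (Newcombe interval -70.9 to -60.0). The 1 CpG within 250 bp before the start was 78.3% in OCI-AML3 and 92.0% in AML5. Exon 1 averaged 44.3% and 89.4%, exon 2 0.94% and 74.3%, and exon 3 4.2% and 86.4%, each over 2 CpG dinucleotides. At 510 bp after the start, in intron 2, no methylated call was seen in either line, in 16 and 18 reads. A cytosine changed to thymine in a line's own DNA reads as unmethylated and cannot be told apart from loss of methylation at any single CpG given here.

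Gene bodies of the beta cluster are a part of their windows, so their levels are not a separate result. Over 42 of 57 CpG dinucleotides the mean was 31.5% ± 39.8 in OCI-AML3 and 77.5% ± 27.2 in AML5. The HBB body stood at 12.6% in OCI-AML3 against 76.5% over 9, the HBE1 body at 21.6% against 75.1% over 10, and the HBD body at 22.2% against 65.6% over only 3 covered CpG dinucleotides. HBG2 stood at 40.6% against 82.1% and HBG1 at 51.2% against 80.0%. As shares of calls in OCI-AML3 the bodies of HBD and HBB had 4.94% and 13.1%, so the order of the genes depended on the weighting. The HBG1 body difference moved from -28.7 to -61.1 points with at least 10 reads in both lines. The SD over CpG dinucleotides within 1 gene, 27.5 to 47.5 points in OCI-AML3, exceeded the gaps between neighboring genes when ordered by mean level.

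The sequence between the beta genes was lower as well. Its 141 covered CpG dinucleotides, outside every window and body, averaged 28.3% ± 32.7 in OCI-AML3 and 85.1% ± 22.5 in AML5, and 104 were called lower and 0 higher, beside 14.7% and 3.86% for the genome. The pseudogene HBBP1, between HBD and HBG1, had 30.6% and 88.3% over 10. Over the whole cluster the mean was 30.0% ± 34.5 and 83.9% ± 24.2 over 234 covered CpG dinucleotides. Of these, 129 were below 20% in OCI-AML3 and 10 in AML5, while 56 and 197 were above 66%. No methylated call was seen at 77 of the 234 in OCI-AML3, so its mean was made of many empty sites beside a minority of full ones.

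**Figure D2:**
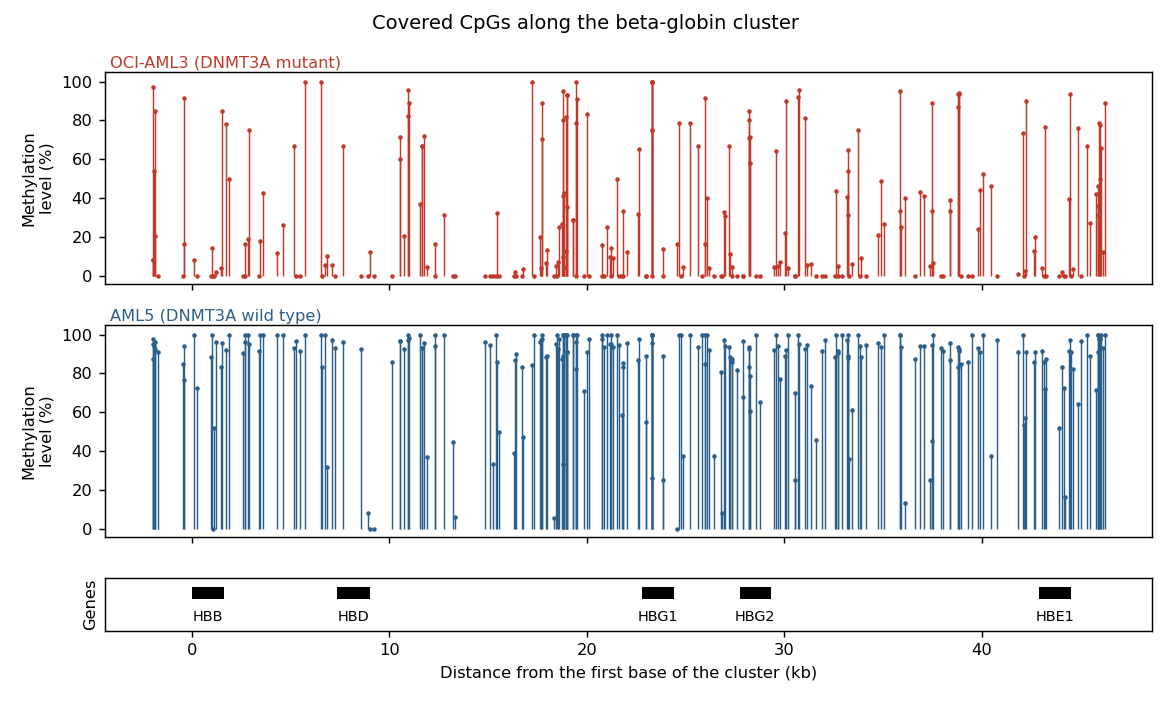
Methylation level in percent (vertical axis, 0 to 100) of each covered CpG along the beta-globin cluster against distance in kb from its first base, in OCI-AML3 (top) and AML5 (middle), with gene bodies as black boxes below. Most CpG dinucleotides are high in AML5, and 129 of the 234 inside the cluster are below 20% in OCI-AML3, with scattered sites above 66%.

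Upstream of HBE1, toward the locus control region, levels in OCI-AML3 were lower too. In steps of 5 kb away from HBE1 the means were 39.7% and 89.0%, then 45.9% and 93.5%, 42.8% and 83.5%, 25.3% and 85.4%, and 61.0% and 91.6%, OCI-AML3 first. Over the 25 kb, 102 of 181 tested CpG dinucleotides were called lower (56.4%) and 0 higher, beside 14.7% and 3.86% for the genome. In the 500 kb on either side of the cluster 30.3% were called lower and 1.46% higher. Moving outward in 50 kb windows, all 20 windows within 500 kb of the cluster were lower on average in OCI-AML3, with differences of -43.1 to -4.67 points and a median of -22.4. None reached the -53.9 points of the cluster. The nearest windows stood at 42.1% against 85.2% beyond HBE1 and 42.9% against 78.4% beyond HBB. On chromosome 11 as a whole the means were 64.6% and 73.2%. Among 56340 genomic windows of 50 kb, 55 had a larger decrease than the beta cluster, which is 0.0976%. In OCI-AML3, 1.09% of these windows had a mean level below the 30.0% of the cluster.

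The neighbors of the beta cluster are olfactory receptor genes. Of the 12 nearest protein-coding promoters, 6 on each side, 10 were lower by over 20 points, with a median difference of -32.0. Over all 19620 promoters the median difference was -4.68 and 8.95% were lower by over 20 points. The largest differences were in OR51B4, at 24.3% in OCI-AML3 and 84.3% in AML5, and OR51B6, at 10.8% and 58.5%. Only 18 of the 19620 promoters had a larger decrease than HBB, and 80, 83, 268 and 301 had a larger one than HBE1, HBG2, HBD and HBG1. Among the promoters with levels nearest to those of HBB, by Euclidean distance over the 2 libraries, were CAMK1 at 22.8% and 86.3% and ZBED2 at 23% and 88.3%.

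Within the beta cluster the level in OCI-AML3 differed with the bases beside the CpG. With A or T on both sides the mean was 16.4% ± 26.6 over 80 CpG dinucleotides, with A or T on 1 side 32.2% ± 34.7 over 115, and with C or G on both sides 51.3% ± 36.7 over 39. The means in AML5 were 76.8%, 86.8% and 89.6%. The sequence within 500 kb on either side had the same order in OCI-AML3, at 33.7%, 52.9% and 68%, with 61.1%, 74.6% and 82.1% in AML5, so the order was shared with the surroundings of the cluster. On chromosome 11 the same classes had 54.7%, 66.8% and 68.1% in OCI-AML3 and 66%, 75.8% and 74.4% in AML5. Among the 144 CpG dinucleotides with no other within 35 bp, the OCI-AML3 means were 11.9%, 27.4% and 32.1% in the order above. Among the 90 with another within 35 bp they were 27.7%, 39.7% and 66.1%. Sites in either spacing class therefore kept the same order, and isolated sites were lower in each. The SDs within a class were larger than the gaps between adjacent classes.

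The 2 most deeply read intergenic sites of each class show the sequences and the spread. Each line gives 30 bases of the forward strand of GRCh37, with the CpG and the base on either side in capitals.
A or T on both sides, chr11:5288519-5288548: ctcccacagtcagTCGAatactatgtcttt
A or T on both sides, chr11:5258578-5258607: aattgaagcagaaTCGAactgttgattaga
A or T on 1 side, chr11:5288920-5288949: tattctatctcccACGGaaagtcttcatca
A or T on 1 side, chr11:5285509-5285538: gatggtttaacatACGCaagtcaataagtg
C or G on both sides, chr11:5258453-5258482: caagcctgagccaCCGCatccagccaggat
C or G on both sides, chr11:5261537-5261566: ttagatggtagcaCCGCctatctatgtgct
The first site had 1 methylated of 88 reads in OCI-AML3 and 61 of 67 in AML5, and the second had 3 of 69 and 19 of 51. The next pair was high in both lines, at 44 of 49 and 52 of 57 reads for ACGG and 47 of 50 and 37 of 40 for ACGC. Of the last pair the first had 39 of 54 and 45 of 47, whereas the other, with the same CCGC, had 0 of 36 and 51 of 53. The classes thus overlapped, and a site with C or G on both sides could be empty in OCI-AML3.

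The alpha cluster showed no such shift of all genes together. Over the cluster from HBZ to HBQ1 the mean was 44% ± 35.2 in OCI-AML3 against 46.2% ± 36 in AML5 over 855 covered CpG dinucleotides of 1193. Sequence between the genes was lower in OCI-AML3, at 61.8% ± 34.8 against 70.1% ± 32.7 over 246. This difference of -8.28 points lay near the -6.86 of chromosome 16 as a whole. Of these sites 43 were called lower (17.5%, beside 14.7% for the genome) and 11 higher (4.47%, beside 3.86%), close to the genome shares. Gene bodies were higher, at 38.3% ± 32.1 against 32.8% ± 31.4 over 274. In them 46 were called lower (16.8%, beside 14.7%) and 75 higher (27.4%, beside 3.86%). The 13 windows of 50 kb measured within 500 kb were all lower in OCI-AML3, with differences of -9.14 to -2.47 points. In all, 79.7% of genomic windows had a larger decrease than the alpha cluster, and NPRL3, which holds the enhancers, had 86.0% and 88.7%. The order by flanking bases seen in the beta cluster was not present here, with OCI-AML3 means of 39.7%, 45.4% and 43.6%.

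**Figure D3:**
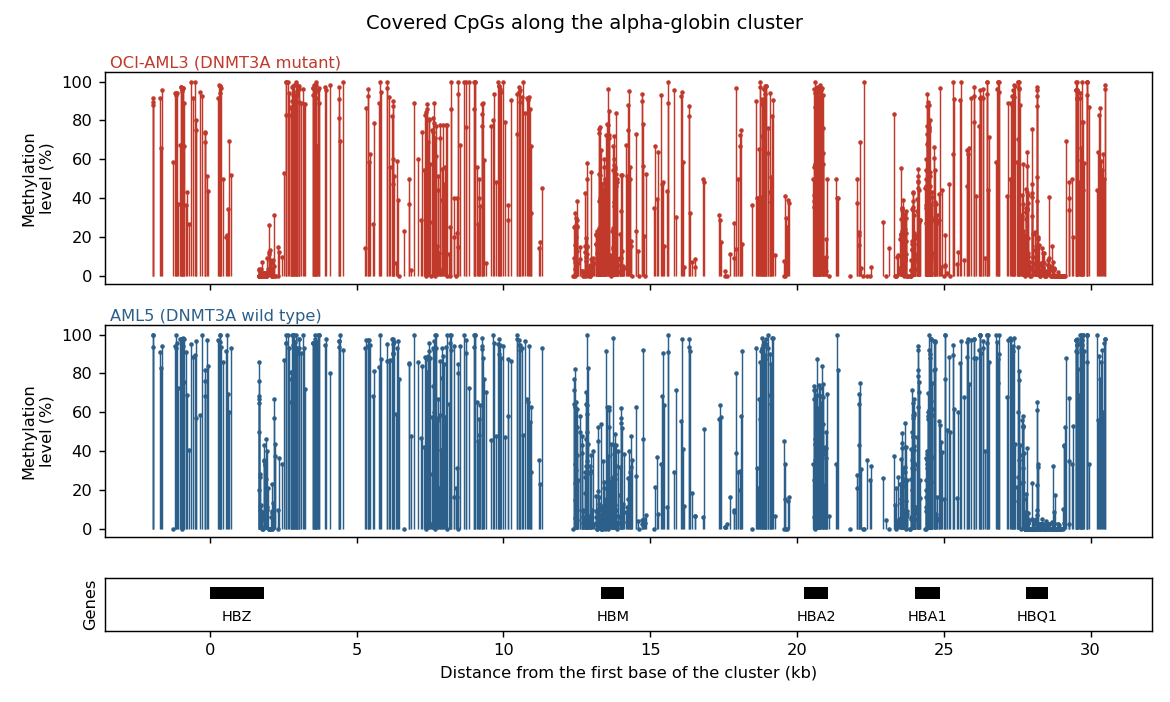
Methylation level in percent (vertical axis, 0 to 100) of each covered CpG along the alpha-globin cluster against distance in kb from its first base, in OCI-AML3 (top) and AML5 (middle), with gene bodies as black boxes below. Highly methylated sites alternate with low CpG-dense stretches in both lines, and the blank intervals by HBZ, HBM and HBA2 had few covered sites.

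HBZ, the embryonic zeta gene, differed by -15.1 points over its window, though the size depended on the region counted. Its window averaged 45.3% ± 41.6 in OCI-AML3 against 60.5% ± 36.6 in AML5 over 82 of 164 CpG dinucleotides. Of the 82, 25 were called lower and 2 higher, beside 14.7% and 3.86% for the genome. With each call counted once the difference was -8.69, and with the most upstream annotated start it was -0.70. The 2000 bp before the start differed little, at 79.1% ± 21.2 and 82.4% ± 24.7 over 36, and exon 1 was full in both lines at 95.8% and 98.0% over 5. The difference was largest in exon 3 among the covered exons, at 1.1% ± 1.9 in OCI-AML3 against 30.2% ± 27.3 in AML5 over all 22 of its CpG dinucleotides, 19 of which were lower. Exon 2 had 25 CpG dinucleotides and none was covered, and 52 CpG dinucleotides of the gene lay in sequence shared within the cluster, of which 1 was covered. All 25 CpG dinucleotides of exon 2 had 0 reads in AML5 and a median of 6 in OCI-AML3, so the middle of HBZ was not measured, and the part of repeated sequence in this was not tested.

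HBM was covered at 175 of 295 window CpG dinucleotides, and none was covered from -2000 to -1001 bp. It was lower in OCI-AML3 from -1000 to -501 bp and higher from just before its start through exon 1 and in the introns. From -1000 to -501 bp the mean was 12.3% ± 12.2 in OCI-AML3 against 35.5% ± 24.7 in AML5 over 37 CpG dinucleotides, with 12 called lower and 0 higher. In the 250 bp shown above it was 30.5% ± 22.0 and 11.7% ± 14.9 over 27, with 9 called higher and 1 lower. In exon 1 it was 38.7% ± 13.5 and 9.2% ± 11 over 13, with 12 higher in value. Exon 3 went the other way, at 18.7% ± 18.8 and 31.3% ± 22.5 over 11. The gene body as a whole had 36.3% ± 25 and 24% ± 22.5 over 69 of 72. The window mean, 30.0% against 25.7%, joined these opposite parts, with 33 called lower and 46 higher.

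Single sites in the HBM sequence changed over a few bases. At -64, the CpG that overlaps the GATAA match, OCI-AML3 had 46 methylated of 61 reads and AML5 had 1 of 41 (adjusted p = 8.7e-13, Fisher's exact test on reads). Beside it, -69 had 44 of 60 and 4 of 42, and -55 had 46 of 60 and 2 of 44. At -106 the direction was the other, with 14 of 61 and 23 of 44. At -96 both lines were low, with 4 of 58 and 1 of 41. Levels over the 27 sites spanned 6.67% to 76.7% for OCI-AML3 and 0.0% to 53.8% for AML5, with medians of 23% and 7.14%, so the lines overlapped.

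HBQ1, the theta gene, lies at the end of the cluster and was covered at 229 of 230 window CpG dinucleotides. The window averaged 34.2% ± 37.3 in OCI-AML3 against 31.0% ± 39.4 in AML5, and the shares of calls differed by 0.036 points (Newcombe interval -1.3 to 1.4). Its body was low in both lines, yet 58 of 72 CpG dinucleotides were higher in OCI-AML3, at 19.5% ± 25 against 5.5% ± 12.6. In exon 1 all 16 were higher, at 26.3% ± 19.3 against 5.2% ± 10.1, and exon 2 had 32.5% ± 34.4 against 13% ± 20.5 over 19. Exon 3 was at 3.6% and 1.0% over 16. In the 500 bp after the start 20 of 53 were called higher and 0 lower, beside 3.86% and 14.7% for the genome. From -2000 to -501 bp both lines were high. There 2 of 10, 2 of 10 and 1 of 8 were called lower in steps of 500 bp, and 0 higher. These few lower calls lay near the genome share of 14.7%.

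**Figure D4:**
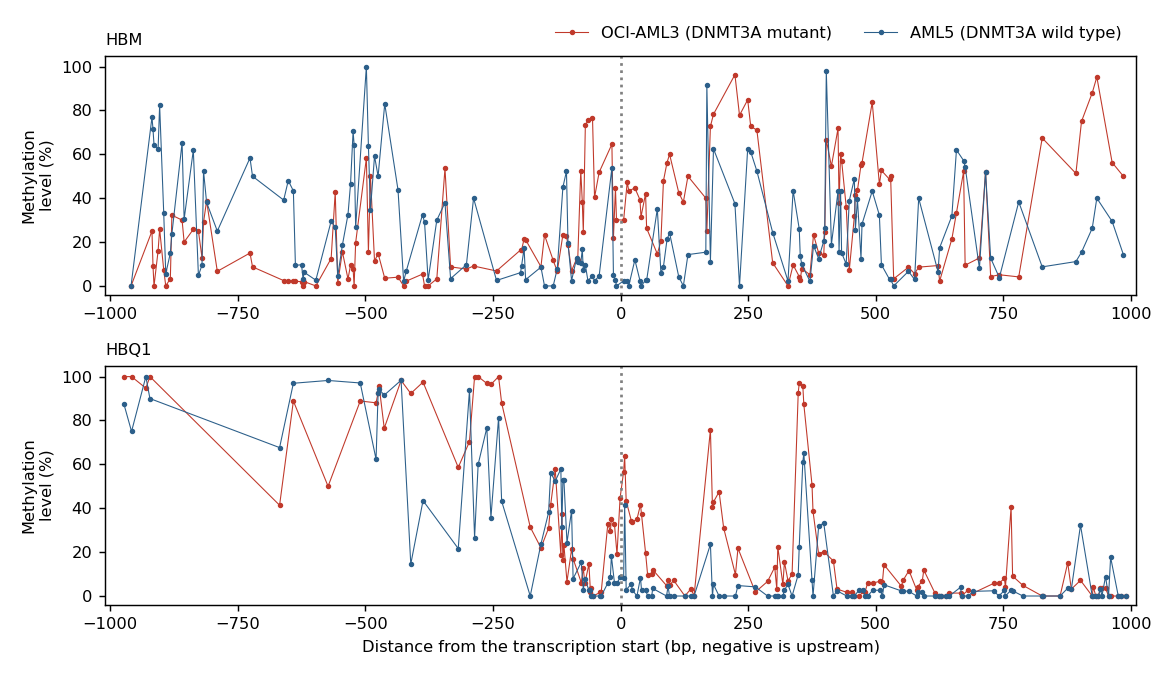
Methylation level in percent of covered CpG dinucleotides (vertical axis) within 1000 bp of the start of HBM (top) and HBQ1 (bottom) against distance from the start in bp, in OCI-AML3 (red) and AML5 (blue), with lines joining neighboring sites and a dotted line at the start. Around the start of HBM and in the first exons of HBQ1 the OCI-AML3 points lie mostly above the AML5 points, and from -1000 to -501 bp of HBM they lie mostly below.

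The adult genes HBA2 and HBA1 are near-identical and went in opposite directions in part of their length. The HBA2 window had 60.9% ± 33.0 in OCI-AML3 against 54.6% ± 29.9 in AML5 over 93 of 196, with 14 called lower and 24 higher. The HBA1 window had 33.4% ± 26.9 and 42.0% ± 30.9 over 162 of 188, with 43 called lower and 13 higher. Over the genome 14.7% were called lower and 3.86% higher, so the 14 lower calls among 93 sites of HBA2 lay near the genome share. Introns of HBA2 had 88.4% ± 13.9 and 58.2% ± 18.0 over 15, all 15 higher in OCI-AML3, and those of HBA1 had 43.6% ± 27.0 and 64.4% ± 26.9 over 18, with 13 lower. Exon 2 was higher in OCI-AML3 in both genes, at 72.1% against 44.9% in HBA2 and 59.7% against 31.9% in HBA1, over 17 each. The 250 bp before the start had no covered CpG of 36 in HBA2, and in HBA1 they had 17.2% ± 13.5 and 33.6% ± 22.7 over 28.

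How reads were placed between these copies was not tested. In HBA2 103 CpG dinucleotides lay in sequence repeated in the cluster and 26 of them were covered, and in HBA1 the numbers were 98 and 73. On the unique sites the difference was 0.76 points for HBA2, where the means were 58.2% and 57.4% over 67, and -12.6 points for HBA1, with 33.1% and 45.7% over 89. On the repeated sites HBA2 stood at 68.0% and 47.3%, so the higher window mean of HBA2 came with the repeated sites. In the gene bodies alone, without repeated sequence, the difference was still 11.5 points for HBA2 and -12.3 for HBA1, over 22 each. Among the promoters nearest to HBA2 in level were GRIK3 at 60.5% and 55.0% and DAOA at 60.2% and 54.4%. Of the 11 neighboring promoters, of which 5 lie toward the chromosome end, 0 differed by over 20 points. Of all 19620 promoters, 8.95% were lower by over 20 points and 1.83% higher. All 11 neighbors were lower, as were 84.6% of all promoters. RGS11 differed the most, at 57.0% against 74.9%, then SNRNP25 at 20.4% against 34.8%.

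Among the windows and bodies, the 5 called CpG dinucleotides with the largest differences in each cluster were examined one by one. Positions are those of the cytosine on the forward strand of GRCh37. In the beta cluster, on chromosome 11, all 5 were empty in OCI-AML3. They were position 5271432 before HBG1 (0 of 23 reads against 19 of 19), 5272520 before HBG1 (0 of 6 against 7 of 7), 5275257 in HBG2 (0 of 12 against 8 of 8), 5291692 before HBE1 (0 of 13 against 30 of 31), and 5274593 in exon 3 of HBG2 (0 of 19 against 29 of 30). Position 5274593 lies in sequence repeated in the cluster, where assignment of reads between HBG2 and HBG1 is uncertain. In the alpha cluster, on chromosome 16, 3 of 5 were higher in OCI-AML3. Position 224928 before HBA1 had 18 of 18 against 0 of 29, position 201702 before HBZ had 74 of 77 against 0 of 45, and position 217356 beyond HBM had 57 of 61 against 1 of 40. The other two, 227677 and 227212 after the start of HBA1, had 3 of 59 against 35 of 35 and 7 of 68 against 40 of 41. Between the beta genes, 7 more called sites went from full in AML5 to empty in OCI-AML3, beside 3 in the windows and bodies. The most deeply read in AML5 was position 5267467, with 0 of 20 against 41 of 41. Between the alpha genes, position 210833 had 0 of 12 against 22 of 22 and position 211106 had 30 of 32 against 0 of 12.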

How the data were processed

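Genomic DNA with spiked unmethylated lambda DNA was sheared, ligated to TruSeq adaptors, bisulfite converted in 2 rounds with the EpiTect kit and sequenced in pairs on a HiSeq 2000. The authors aligned the reads to hg19 (Bowtie 0.12.8 and Bismark, per the submitters' processing notes) and deposited, for every CpG, raw counts of its methylated and its unmethylated calls with both strands added together. Duplicate removal is not stated in the sources used here. The column of methylated calls was settled from mitochondrial DNA, where 0.168% and 0.101% of calls were then methylated. Levels, Wilson and Newcombe 95% intervals, Fisher's exact tests with Benjamini-Hochberg adjustment at 0.05 and repeated sequence (a 101 bp neighborhood found elsewhere in the cluster) were computed with Python 3.11.15, numpy 2.4.6, scipy 1.17.1 and pandas 2.3.3, at more than 5 reads in both lines. Starts were those of canonical transcripts. On simulated calls, drawn independently with few sites changed, 0 false calls were made. Real calls can share a read, so this checks the code and does not measure the error of the real calls. The members and lists were chosen with earlier results of these data known. Named genes were all 10 globin genes, the 2 promoters of each context list with the largest absolute difference, the 3 nearest in level to HBB and HBA2, and the 5 called CpG dinucleotides in the windows and bodies of each cluster with the largest difference, of which some are not reported here; the sites set beside them, such as those of HBM and HBD, were chosen after their values were seen.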

Additional observations from a re-analysis of the deposited data

How the results depend on the processing

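With 1 library per line no replicate could be left out, and no paired analysis was possible because each line has a single library. The beta genes were lower in OCI-AML3 under every alternative tried: with at least 10 reads the window difference was -52.9 points and the body difference -50.2, and with each call counted once they were -51.9 and -52.2. For the alpha windows the main value of -0.50 became 3.05 with 1000 bp on either side, a change of direction, -2.36 with each call counted once, -3.89 with 2000 bp upstream only and -2.05 with the most upstream annotated start. With each call counted once the alpha body difference was 2.98 and the alpha intergenic difference -6.42. HBM changed direction from 4.34 to -9.02 with 2000 bp upstream only, where 81 of 198 sites were covered, and to -13.1 with the most upstream start. The HBZ window difference of -15.1 was -8.69 with each call counted once, -9.30 with 1000 bp on either side, -3.28 upstream only and -0.70 with the most upstream start. HBD was -22.0 with 1000 bp in place of -39.3. The HBG1 body was -61.1 with at least 10 reads and -52.8 with each call counted once in place of -28.7, and the HBA1 body was -13.6 with each call counted once in place of -4.11. The HBQ1 window was 9.94 with 1000 bp in place of 3.22, and that of HBA2 was 15.5 in place of 6.33. The cause of these shifts was not tested. In the 10 genes 311 of 839 CpG dinucleotides were called in the main setting, beside 18.5% for the genome. With at least 10 reads 301 of 787 were called, beside 19.5% for the genome. At an adjusted p under 0.01 it was 261 of 839, beside 14.4%. With a difference of at least 20 points it was 306 of 839, beside 17.9%. The fetal first exons, HBZ exon 2, HBM from -2000 to -1001 bp and the 250 bp before HBA2 had no CpG past the read minimum in both lines, so nothing can be said of them.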

Other observations

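Among 20 genes for factors that regulate globin expression, 1 promoter was lower by over 20 points and 0 were higher, beside 8.95% and 1.83% of all promoters. It was KLF1, the erythroid factor that acts on the HBB promoter, at 31.4% in OCI-AML3 against 65.9% in AML5 over 146 CpG dinucleotides. The next largest difference was in NR2F2, at 55.9% and 37.3%. The median difference of the 20 was -1.62 points. Among 16 erythroid and heme genes, 3 were lower by over 20 points and 0 higher, with a median of -4.72. The largest were EPOR, the erythropoietin receptor, at 22.5% and 56.8%, and ALAS2, the erythroid enzyme of the first step of heme synthesis, at 63.5% and 93.1% over 11 CpG dinucleotides. Of the 4 globins outside the clusters, 0 differed by over 20 points, with CYGB at 42.3% and 56.5% and NGB at 61.5% and 47.4%.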
